A study of Mus musculus with 24 samples.

Results

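Genes whose messenger RNA signal was lower within 30 min of anti-CD3 were examined in mouse thymocytes. Each of 18193 genes was represented by the brightest probe set that lists that gene alone, and 8361 genes had a mean log2 signal of at least 6 over the 24 arrays. A gene was taken when its change, anti-CD3 minus untreated within a mouse, averaged at most −0.25 over the 12 mice and was below 0 in at least 11 of them. Leaving out Rag1, Rag2, Txnip, Ddit4, Klf2, S1pr1, Id2 and the genes whose symbols start with Socs, Slfn, Gimap, Ccr, Cxcr, Btg, Spr or Bcl gave 140 genes, 1.67% of the 8361. The genes were thus selected on the measured changes of all 12 mice, so the size of these changes is a description here and is not tested.

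The cells were CD4 and CD8 double-positive (DP) thymocytes sorted from the thymus of male Black 6J mice aged 8 weeks, rested for 2 h in RPMI with fetal calf serum and then placed on anti-CD3-coated plates for 30 min, or on plates without a coat (untreated). There were 3 mice each of Sap KO (SapKO), Elk KO (ElkKO), the combined Elk/Sap KO (ElkSapKO) and wild type (WT), and each mouse gave 1 array in each state, so that 8 groups of 3 arrays were compared. Sap is taken to be Elk4, also called SAP-1, and Elk to be Elk1; both are ternary complex factors, whose part in positive selection the study asks about. Whether the knockouts are restricted to a cell type, and how each allele was made, is not stated in the labels. Each array measured a population of sorted cells, so fewer cells with an RNA and less of it per cell cannot be told apart.

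DP thymocytes are immature T cells that live or die by the signal from their T cell receptor. Anti-CD3 engages the CD3 chains of that receptor and switches on ERK, calcium and PI3K to Akt signalling, and ERK in turn activates the ternary complex factors bound to DNA with Srf. Akt phosphorylates FOXO transcription factors and keeps them out of the nucleus, and FOXO factors support genes of resting lymphocytes. A lower signal after a short exposure can follow from less synthesis or from faster decay of an RNA, which arrays do not separate.

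Array quality differed between genotypes. Probe sets at the 3′ end of Actb read higher than those at its 5′ end where RNA is degraded, and this difference averaged 0.195 ± 0.025 log2 in SapKO, 0.495 ± 0.110 in ElkKO, 0.714 ± 0.188 in ElkSapKO and 0.224 ± 0.074 in WT (SD, n = 6 arrays each). The untreated array of ElkSapKO mouse 2 was unlike the rest: the interquartile range of its signals about each gene's median array was 0.785, and that of the 23 remaining arrays 0.170 to 0.519. The dap spike-in, a bacterial RNA added before labelling, was at 6.00 to 6.60 in both arrays of SapKO mice 1 and 3 and WT mice 1 and 2, and at 8.81 to 9.66 in the rest. Elk4 was at 6.88 to 7.27 in untreated SapKO cells, 6.13 to 7.85 in untreated ElkSapKO cells and 10.35 to 10.69 in untreated WT cells. Elk1 was dim in every group and does not check the Elk label, with 4.03 to 4.69 in untreated ElkKO cells and 4.70 to 5.23 in untreated WT cells. The DP markers Cd4, Cd8a, Cd8b1 and Dntt were at 10.45 or above on every array, and Cd3e at 10.06 or above. Rag1 and Rag2, also on that list, were at 12.27 and 9.12 or above, with mean changes of −0.64 and −0.33. Summed B cell, myeloid and other marker levels had overlapping ranges in anti-CD3 and untreated arrays, which does not show that the cell mix was the same. Of the B cell list 3 of 7 markers reached a mean of 6, with Ighm at 12.02 after anti-CD3 and 11.69 untreated, while Ms4a1 lay between 3.47 and 5.46 and Pax5 between 4.11 and 5.59.

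The lowered genes fell by small amounts. Their mean changes ran from −0.99 for Arrdc3 to −0.25, with a median of −0.32, against a median of −0.02 over the 8361 genes. A mean fall to a level 2-fold lower was reached by 0 of the 140, 12 had a mean change of −0.5 or below, and 63 were above −0.3. For each of the 140 genes the 12 anti-CD3 arrays overlapped the 12 untreated arrays when the 4 genotypes were pooled. Within a genotype the arrays could separate: Pik3ip1 was at 9.63 to 10.07 after anti-CD3 and at 10.58 to 10.86 untreated in WT. The rule used these changes, and the share of all genes that separate by state was not counted. Nothing is thus read from the overlap of the 140 or the separation of Pik3ip1. All 12 mice were below 0 for 50 genes and 11 mice for 90. In a limma fit of the average response, 54 of the 140 (38.6%) were called lower at an adjusted p under 0.05, beside 0.434% of all genes and 0.837% of the 8361. In either direction 1.45% of all genes and 2.69% of the 8361 were called. The rule used this contrast, so nothing is read from that count. The mirrored rule, with a mean change of at least 0.25 and above 0 in at least 11 mice, gave 228 genes.

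**Figure D1:**
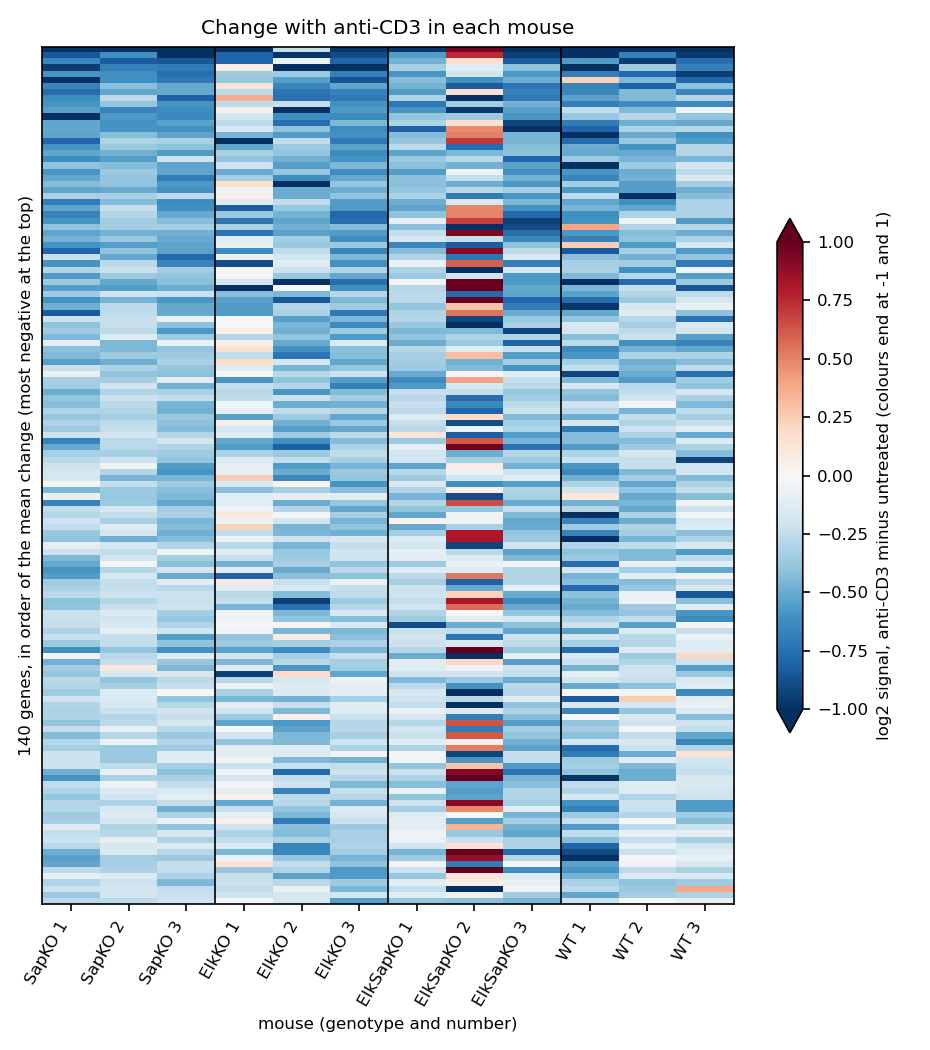
Each row is 1 of the 140 lowered genes and each column 1 mouse; colour gives the log2 signal of the anti-CD3 array minus that of the untreated array. Columns are mostly blue because the rule chose the rows for it, and ElkSapKO mouse 2 holds 52 of the values at or above 0.

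At the threshold, Ccnq, Rbbp5 and Dhcr7 were just inside, at −0.25 each, and Ormdl1, Fam118b and Ankrd46 just outside, also at −0.25 when rounded. A further 42 genes had a mean change of at most −0.25 but fell in fewer than 11 mice. Of the genes left out by name, 8 met the thresholds: Socs3 at −1.25, Txnip at −1.07, Ccr7 at −0.95, Ddit4 at −0.80, Rag1 at −0.64, Id2 at −0.38, Slfn2 at −0.34 and Rag2 at −0.33. Arrdc3 is thus the only gene among the 140 with a mean change beyond that of Ccr7.

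The nutrient, growth factor and lipid genes held 16 of the 140, by a grouping made after the values were seen. Arrdc3, an arrestin-domain protein of the same family as Txnip, had the largest mean change, with signals of 7.31, 7.96 and 8.54 (lowest, median and highest of 12) after anti-CD3 and 6.96, 9.18 and 9.75 untreated. Its mean change was −0.99 ± 0.71 (SD, n = 12 mice), and it rose only in ElkSapKO mouse 2, by 0.96; without that mouse the mean was −1.16 ± 0.38. The 11 other mice lay between −1.60 and −0.24. Pik3ip1, a membrane protein that inhibits PI3K, had 9.09, 9.64 and 10.07 after anti-CD3 and 9.27, 10.35 and 10.86 untreated. It was lower in each of the 12 mice, with changes of −0.94 to −0.18 and a mean of −0.59 ± 0.21. Foxo3, a FOXO factor, averaged −0.27 ± 0.17 and was lower in 12 of 12 mice. Fbxo32, an F-box protein of ubiquitin ligases that FOXO factors induce in muscle, averaged −0.26 ± 0.15, lower in 11. Vhl, which targets HIF proteins for degradation, averaged −0.32 ± 0.19, and Slc16a1, a lactate and pyruvate transporter, −0.27 ± 0.30. Scd2, a fatty acid desaturase, had the steadiest change of all 140 by representative probe set, at −0.28 ± 0.08. It had 10.25 to 11.05 after anti-CD3 and 10.49 to 11.38 untreated. Further probe sets of Scd2 were less steady, at −0.51 ± 0.56 and −0.38 ± 0.23, each lower in 11 of 12 mice. Abhd15, an abhydrolase, averaged −0.54 ± 0.26, and B3gnt8, a glycosyltransferase, −0.52 ± 0.37; each rose only in ElkKO mouse 1. The group ran from −0.99 to −0.25 with a median of −0.30.

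**Figure D2:**
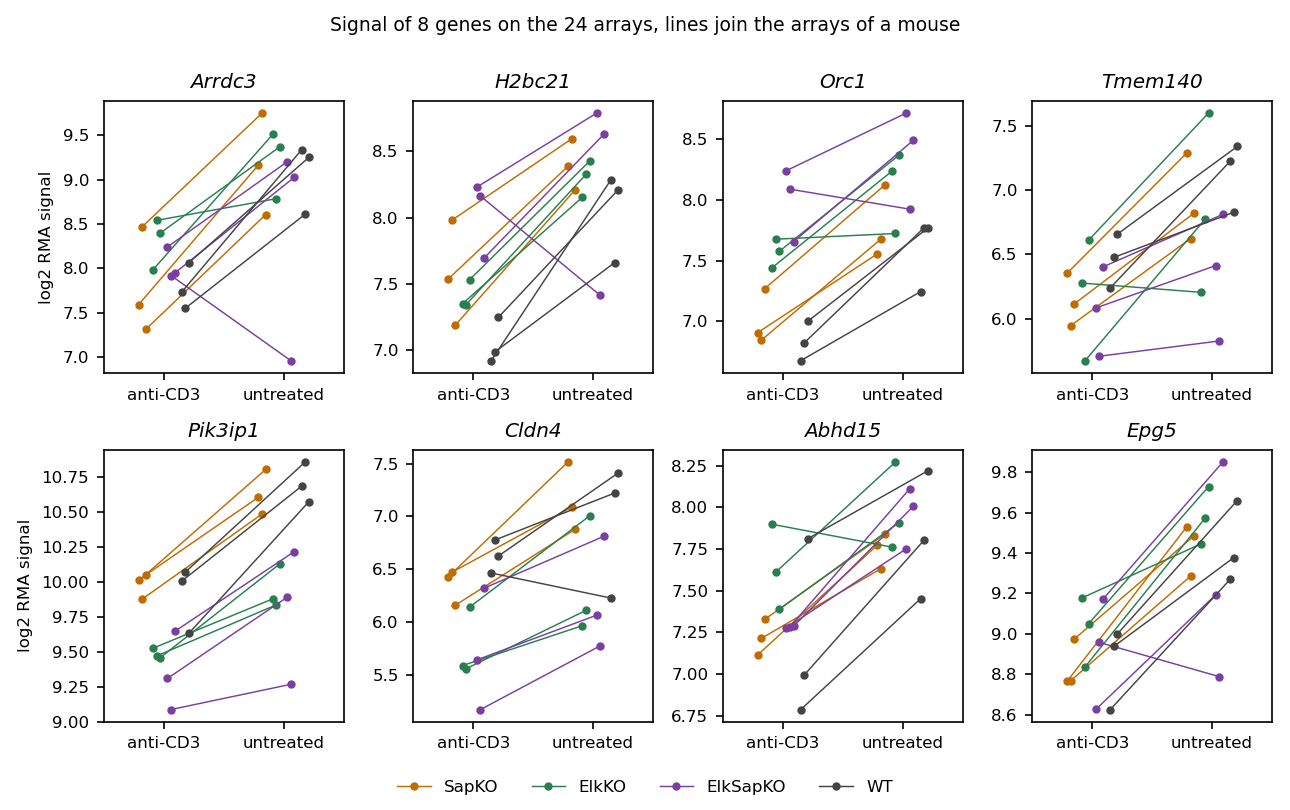
Log2 RMA signal (y axis) of the 8 named genes with the largest mean fall, anti-CD3 at the left and untreated at the right of each panel; each line joins the arrays of 1 mouse and colour gives the genotype. Pik3ip1 slopes the same way in all 12 mice, while 1 line runs the other way for the other 7 genes.

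Histone and chromatin genes were 8 of the 140, with a median change of −0.36. H2bc21, an H2B histone gene, had 6.92, 7.44 and 8.23 after anti-CD3 and 7.41, 8.31 and 8.79 untreated. Its mean change was −0.74 ± 0.52, or −0.88 ± 0.22 without ElkSapKO mouse 2, the only mouse in which it rose (0.75). H3f3b, which encodes the replication-independent histone H3.3, averaged −0.41 ± 0.43. H2aw, an H2A gene, averaged −0.39 ± 0.51 and the linker histone gene H1f2 −0.28 ± 0.27. H3f3b is represented here by a dim probe set, at 6.18 to 7.65 after anti-CD3 and 6.51 to 7.73 untreated, because brighter ones list several genes. Histone genes resemble one another, and the H2bc21, H2aw and Tubb2a probe sets are of the kind that can match more than 1 transcript. Rbbp5, a subunit of histone H3 lysine methyltransferase complexes, averaged −0.25 ± 0.13 and was lower in each mouse.

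DNA replication, repair and mitosis genes were 15 of the 140, with a median of −0.29. Orc1, the largest subunit of the origin recognition complex, had 6.68, 7.36 and 8.24 after anti-CD3 and 7.24, 7.85 and 8.71 untreated. Its mean change was −0.62 ± 0.34, lower in 11 of 12 mice, with 0.16 in ElkSapKO mouse 2. The other Orc1 probe set averaged −0.23 ± 0.32 and fell in 10 mice, so the size of the Orc1 change depends on the probe set. Orc5, another subunit of that complex, averaged −0.36 ± 0.25, or −0.42 ± 0.14 without ElkSapKO mouse 2. Cdk20, a cyclin-dependent kinase, averaged −0.43 ± 0.19 and Nsl1, a kinetochore protein, −0.42 ± 0.34. Rad52, a recombination protein, averaged −0.47 ± 0.35, Ska2, a kinetochore protein, −0.29 ± 0.18 and Mzt1, a component of the gamma-tubulin ring complex, −0.29 ± 0.32. Tubb2a, a beta-tubulin, was the brightest of the 140, with 11.44, 11.66 and 11.88 after anti-CD3 and 11.81, 11.92 and 12.12 untreated. It fell in every mouse, with changes of −0.45 to −0.11, although the groups overlapped.

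The promoters of these histone, origin and tubulin genes are shown so that the core elements they carry can be read beside their values. Each line gives the 120 bases before the RefSeq start on GRCm38.p6, 5′ to 3′ in the direction of the gene, with capitals for a CCAAT box and for a GC box (GGGCGG), each on either strand, for a TATA box (TATAAA) and for a cAMP response element, whose letters are TGACGTCA. They lie at chr11:58954565-58954684, plus strand, for H2aw; chr13:23738687-23738806, plus strand, for H1f2; and chr11:116024505-116024624, minus strand, for H3f3b.
H2aw: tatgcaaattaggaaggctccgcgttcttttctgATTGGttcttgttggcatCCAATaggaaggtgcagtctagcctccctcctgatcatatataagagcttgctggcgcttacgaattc
H1f2: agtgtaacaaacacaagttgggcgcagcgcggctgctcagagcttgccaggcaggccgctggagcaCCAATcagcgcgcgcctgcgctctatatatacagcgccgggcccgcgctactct
H3f3b: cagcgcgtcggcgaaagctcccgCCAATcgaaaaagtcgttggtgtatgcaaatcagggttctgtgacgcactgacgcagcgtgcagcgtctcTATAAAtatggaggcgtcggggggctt
Those of Orc1 and Orc5 lie at chr4:108579334-108579453, plus strand, and at chr5:22550339-22550458, minus strand. That of Tubb2a is at chr13:34078009-34078128, minus strand.
Orc1: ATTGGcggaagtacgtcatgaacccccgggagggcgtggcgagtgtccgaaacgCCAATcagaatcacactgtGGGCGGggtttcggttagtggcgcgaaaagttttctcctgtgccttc
Orc5: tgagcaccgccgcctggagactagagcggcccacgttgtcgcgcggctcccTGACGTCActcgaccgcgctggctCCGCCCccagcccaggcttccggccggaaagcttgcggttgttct
Tubb2a: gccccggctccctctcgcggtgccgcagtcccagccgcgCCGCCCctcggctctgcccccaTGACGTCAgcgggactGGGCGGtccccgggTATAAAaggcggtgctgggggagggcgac
The 3 histone promoters hold a CCAAT box with its first base 97 to 54 bases before the start, and H3f3b has a TATA box as well. Orc1 holds 2 CCAAT boxes, while Orc5 and Tubb2a hold a cAMP response element. For comparison the same stretch of Pik3ip1, at chr11:3330611-3330730, plus strand, holds none of these motifs.
Pik3ip1: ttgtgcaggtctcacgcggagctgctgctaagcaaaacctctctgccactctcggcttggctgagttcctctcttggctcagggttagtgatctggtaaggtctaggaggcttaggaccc

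Transcription factors and parts of the transcription machinery were 18 of the 140. Zkscan14, a zinc finger protein, had 7.78, 8.01 and 8.39 after anti-CD3 and 8.39, 8.61 and 8.67 untreated, so that the highest anti-CD3 array barely passed the lowest untreated one. Its mean change was −0.51 ± 0.17 and it fell in 12 of 12 mice. Thap11, a zinc finger factor known from embryonic stem cells, averaged −0.47 ± 0.15 and also fell in each mouse. Ier5 averaged −0.42 ± 0.32, although its symbol places it among the immediate early response genes. Klf10, a Krüppel-like factor, fell in 11 mice, with changes of −0.84 to −0.17, and rose by 1.34 in ElkSapKO mouse 2. Zbtb44 and Zfp763, zinc finger genes, likewise rose only in that mouse, by 1.51 and 1.21, and averaged −0.28 ± 0.60 and −0.26 ± 0.52, or −0.44 and −0.40 without it. Med22, a Mediator subunit, averaged −0.45 ± 0.28. Fli1, an ETS factor of blood cells, averaged −0.28 ± 0.31, Nkap, a repressor needed for T cell development in mice, −0.28 ± 0.20, and Stat2, which relays interferon signals, −0.33 ± 0.19. By symbol, 9 of the 233 zinc finger genes with a mean signal of at least 6 (3.86%) were among the 140, beside 1.67% of the 8361, and the median change of those 233 was −0.02.

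Autophagy, endosome and lysosome genes were 9 of the 140, with a median of −0.38. Epg5, a tether between autophagosomes and lysosomes, had 8.62, 8.95 and 9.18 after anti-CD3 and 8.79, 9.47 and 9.85 untreated, and averaged −0.52 ± 0.26. Atg12, a ubiquitin-like protein that is joined to Atg5 in the growing autophagosome, averaged −0.46 ± 0.17 and fell in 12 of 12 mice. Atg14, the autophagy subunit of the class III PI3-kinase complex, averaged −0.25 ± 0.21. Vps33a, a subunit of the complex that fuses lysosomes, averaged −0.38 ± 0.32, Rab5b, an early endosome GTPase, −0.44 ± 0.31, and the lysosomal protease Ctss −0.47 ± 0.49. The ubiquitin and proteasome genes were 8, with a median of −0.34. Among them Trim59, a RING finger protein, averaged −0.41 ± 0.44, Rbx1, the RING subunit of cullin ligases, −0.37 ± 0.26 and Fbxl12, an F-box protein, −0.36 ± 0.13.

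RNA, translation and mitochondrial genes were 18 of the 140 and lay in a narrow range, from −0.39 to −0.26 with a median of −0.29. Of these, 9 fell in all 12 mice, among them Mrpl49, a mitochondrial ribosomal protein, at −0.37 ± 0.13. Ctu1 and Dus2, which modify transfer RNA, averaged −0.29 ± 0.33 and −0.26 ± 0.25. Rpl12 is represented by a dim probe set, at 5.68 to 6.65 after anti-CD3 and 5.44 to 6.97 untreated, since brighter ones list several genes.

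Membrane receptors, channels and signalling genes were 14, with a median of −0.32. Cldn4, a claudin, had 5.17, 6.24 and 6.78 after anti-CD3 and 5.78, 6.85 and 7.51 untreated, with a mean change of −0.56 ± 0.32 and a rise only in WT mouse 1. Kcna2 and Kcna3 encode voltage-gated potassium channels, the second of them the main such channel of T cells, and averaged −0.44 ± 0.16 and −0.35 ± 0.29; both fell in 12 of 12 mice. Ikbkg (NEMO), the regulatory subunit of the IκB kinase, averaged −0.33 ± 0.19. Rapgef3 (EPAC1), a cAMP-activated exchange factor for Rap, averaged −0.33 ± 0.22. Marcks, a substrate of protein kinase C, averaged −0.26 ± 0.15 and was among the brightest, at 10.78 to 11.15 after anti-CD3 and 10.89 to 11.34 untreated. P2ry10, a lysophospholipid receptor, averaged −0.32 ± 0.46, and Bid, a death-promoting BCL2-family protein, −0.26 ± 0.39. The remaining 34 genes were given no role, among them Tmem140 at −0.60 ± 0.38, Armc7 at −0.51 ± 0.32, Ccdc171 at −0.48 ± 0.39, Pithd1 at −0.47 ± 0.10 and Tcta at −0.46 ± 0.16. Pithd1 and Tcta fell in every mouse, while Tstd2 averaged −0.26 ± 0.67 with a rise of 1.74 in ElkSapKO mouse 2. Clone-like symbols account for 10 of the 140 and were counted but not described.

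The lowered genes had a lower median change than the 8361 genes in each mouse, which largely follows from the rule that chose them. Their median change ran from −0.45 in WT mouse 1 to −0.16 in ElkSapKO mouse 2, and after the median of the 8361 genes in the same mouse was taken off, from −0.39 to −0.22. Averaged by genotype, the median was −0.35 ± 0.05 in SapKO, −0.34 ± 0.12 in ElkKO, −0.30 ± 0.14 in ElkSapKO and −0.37 ± 0.08 in WT (SD, n = 3 mice each). All 3 mice fell for 139 of the genes in SapKO, 115 in ElkKO, 86 in ElkSapKO and 130 in WT. The mouse that did not fall was ElkSapKO mouse 2 for 52 of the 90 genes with 1 exception, ElkKO mouse 1 for 21, and another mouse for 17. With ElkKO numbers 1 and 2 exchanged, ElkKO mouse 1 was at or above 0 for 7 of the genes and mouse 2 for 6. The median of the mouse medians was −0.38 in the 4 mice with low dap and −0.30 in the 8 with high dap. All 140 means were below 0 in both sets, which the rule nearly fixed, so this does not test the part of dap. The Actb 3′ minus 5′ signal changed by −0.10 to 0.24 with anti-CD3, and its part in the falls was not tested.

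**Figure D3:**
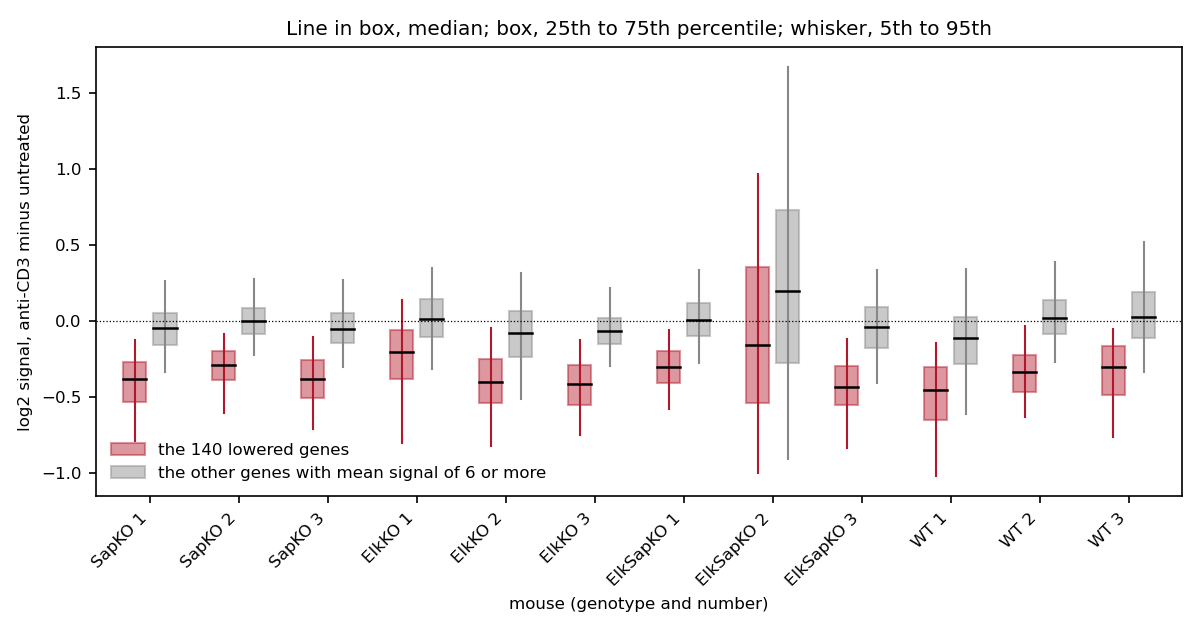
Change with anti-CD3 (y axis, log2) in each of the 12 mice (x axis), for the 140 lowered genes (red) beside the other genes with mean signal of 6 or more (grey); boxes span the 25th to 75th percentile, lines mark medians and whiskers the 5th to 95th percentile. The red median lies below the grey one in every mouse, as the rule makes it, and ElkSapKO mouse 2 has the widest spread in both sets.

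A reading that the rule did not fix comes from choosing the genes on 11 mice and looking at the mouse left out. Outside ElkSapKO mouse 2 this chose 122 to 166 genes, of which 72.3% to 99.3% fell in the mouse left out. In those 11 mice 45.4% to 71.5% of the 8361 genes fell. The lowest share was in ElkKO mouse 1, with 120 of 166 genes and a median of −0.11; the other 10 mice had 86.3% or more and medians of −0.41 to −0.23. ElkSapKO mouse 2 differed: 275 genes were chosen without it, only 25.5% of them fell in it, beside 39.6% of the 8361 genes, and their median change in it was 0.61. Of those 275, 121 are among the 140. Its untreated array is the one that stood apart above, and the part of array quality in this result was not tested. This mouse holds 52.2% of the summed squared deviations of the 140 genes from their own means.

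Other probe sets for the same genes gave a second measure from the same RNA. The lowered genes have 92 further probe sets with a mean signal of at least 6, of 62 genes. Of these, 87 (94.6%) had a mean change below 0 and 44 (47.8%) a mean change of at most −0.25. Among further probe sets of all genes the shares were 61.6% and 5.21%. The second probe sets of H2bc21, at −0.72 ± 0.21, and of Pik3ip1, at −0.52 ± 0.14, fell in 12 of 12 mice. One Rapgef3 probe set averaged −0.81 ± 0.37, below the one that represents the gene. The 5 that did not fall belong to Ascc3, Zfand3, Agfg2, Zbtb44 and Smyd1. Of the 140 representative probe sets, 10 carry the s suffix and 7 the x suffix, which Affymetrix gives to probe sets that can match several transcripts.

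Among gene lists of pathways near the receptor, 3 held lowered genes. Of 21 measured FOXO target and quiescence genes with a mean signal of at least 6, 3 (14.3%) were among the 140 (Pik3ip1, Foxo3 and Fbxo32), beside 1.67% of the 8361, and Ccr7, Rag1 and Rag2 met the thresholds but were left out by name. In that list 4 genes were called lower and 0 higher in the average response, beside 0.837% of the 8361 called lower. They were Pik3ip1, Foxo3 and, outside the 140, Ccr7 and Rag1. The rule used this contrast, and the lists were chosen with earlier results of these data known, so nothing is read from these calls and shares. The median change of the FOXO list was −0.15 against −0.02 for the 8361 genes. Other genes of the list did not move alike: Sesn1 averaged −0.22 ± 0.14, Il7r −0.33 ± 0.82, Klf2 −0.02 ± 0.62 and Gabarapl1 0.08 ± 0.20, none of them called. The nutrient and PI3K to mTOR list held Arrdc3 and Pik3ip1, 2 of 21 genes (9.52%), with Txnip and Ddit4 left out by name, and 4 of its genes were called lower and 2 higher. The G protein list held P2ry10, 1 of 13. Each other pathway list held 0 of the 140. With a mean signal of at least 6 these include 23 DP thymocyte, 25 T lineage transcription factor, 16 cell cycle and 26 mRNA decay genes. At the 1.67% of the 8361, lists of this size would hold few or none, so nothing is read from the zeros. Some of these zeros come from the genes left out by name: Rag1 and Rag2 of the DP thymocyte list, Id2 of the T lineage list, Socs3 of the cytokine list and Ddit4 of the glucocorticoid list met both thresholds. All 12 immediate early genes were called higher.

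The lowered genes were short. Of 138 with a span in RefSeq on GRCm38.p6, the median was 11204 bases from first to last exon base, against 23635 in the other genes with a mean signal of at least 6. A span under 5 kb was found for 25.4% of the lowered genes and 10.97% of the others, and a span over 50 kb for 8.70% and 25.8%. The difference was there at each level of signal: the median was 11801 bases in lowered genes against 22257 in others at a signal of 6 to 7, 9248 against 23714 at 7 to 8, 11204 against 25648 at 8 to 9, and 15098.5 against 22526 at 9 and over. The 228 genes raised by the mirrored rule were short as well, with a median of 12868 bases. Genes with mean changes of −0.05 to 0.05 had a median of 26883.5 bases. On the lowered side the median was already 15551 bases at −0.25 to −0.15. On the raised side it was 28757 at 0.05 to 0.15, 23514.5 at 0.15 to 0.25 and 13500.5 at 0.25 and over, so only the last of these bins was short. By type, 130 of the 140 are protein coding, 7 are long noncoding RNAs and 1 is a transcribed pseudogene.

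**Figure D4:**
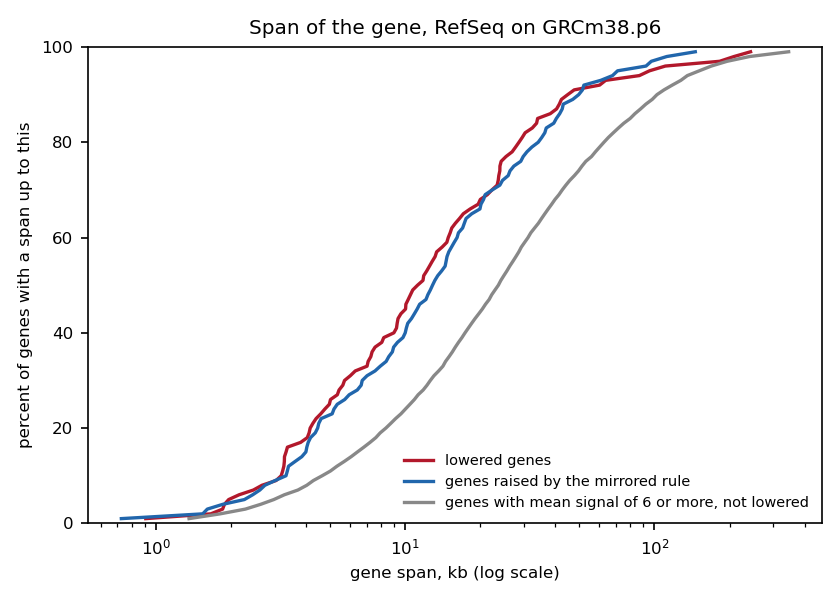
Percent of genes (y axis) with a RefSeq span up to the value on the x axis (kb, log scale), for the lowered genes, the genes raised by the mirrored rule and the genes with mean signal of 6 or more that were not lowered. The lowered and raised genes run together, to the left of the third curve, with medians of 11204, 12868 and 23635 bases.

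Promoters from 250 bases before to 50 after the start were found for 112 of the 140 and for 6882 of the 8361 genes. Each motif was searched on both strands, and a match is a description of the letters. The cAMP response element (TGACGTCA) was in 6.25% of lowered genes, 3.69% of the 6882 and 1.88% of all 27025 promoters. The E-box (CACGTG) was in 4.46%, 10.96% and 7.24% of these sets. The CCAAT box was in 33.9%, 39.4% and 37.9%, the GC box in 62.5%, 67.8% and 35.9%, and the TATA box in 8.93%, 6.18% and 14.16%. The FOXO site (GTAAACA) was in 3.57%, 2.59% and 3.55%, which for the lowered genes is Tmem140, N6amt1, Zfp688 and Zfp874b. The ETS site (CCGGAAGT) was in 8.04%, 10.2% and 4%, the AP-1 site (TGANTCA) in 4.46%, 4.14% and 7.93%, the STAT site (TTCNNNGAA) in 5.36%, 6.66% and 8.47%, and the glucocorticoid receptor site (AGAACA) in 8.93%, 11.4% and 19.0%. The cAMP response element count is 7 genes and the E-box count 5, so these shares rest on few promoters. The median GC content was 60.2% in lowered genes and 61.3% in the 6882, and a start on the opposite strand within 1000 bases was found for 23.2% and 19.3%.

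The knockouts were compared with WT in each state, which the choice of genes did not use. In SapKO 0 of the 140 were called against WT in either state by limma, beside 0.0824% of all genes untreated and 0.0715% after anti-CD3; with array weights 0 were called as well. At an unadjusted p under 0.05 there were 3 untreated (2.14%, beside 1.65% of all genes) and 2 after anti-CD3 (1.43%, beside 2.97%). In ElkKO 1 of the 140 was called in each state, beside 0.0989% of all genes untreated and 0.220% after anti-CD3, and the gene was Rapgef3. In ElkSapKO 11 of the 140 were called untreated (7.86%), 4 higher and 7 lower, beside 3.44% of all genes and 6.28% of the 8361. After anti-CD3 22 were called (15.7%), 8 higher and 14 lower, beside 6.83% of all genes and 12.5% of the 8361. The shares of the lowered genes lay near the background of genes with a mean signal of at least 6. The 35 calls fall on 28 genes.

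Rapgef3 had 9.19, 8.89 and 9.03 in anti-CD3 ElkKO cells, against 9.82, 9.76 and 9.67 in anti-CD3 WT cells, so the groups did not overlap. Such separation was common, since 25.9% of genes with a mean signal of at least 6 showed it between these groups. Rapgef3 was lower in ElkKO by log2 −0.71 ± 0.13 (SE, limma adjusted p = 0.0228). That call was lost in 6 of 24 fits that left out 1 array, with an adjusted p of up to 0.176 without the anti-CD3 array of ElkKO mouse 2. It was also lost with the mean of all probe sets (limma adjusted p = 0.386). With only the high-dap arrays, which leave 1 WT mouse, Rapgef3 differed by −0.63. In anti-CD3 ElkSapKO cells it had 9.17, 9.14 and 9.12, lower by −0.61 ± 0.13 (adjusted p = 0.0125). In untreated cells ElkKO was lower by −0.68 ± 0.13 (limma adjusted p = 0.049), a call lost in 21 of 24 fits that left out 1 array and with the mouse as a block (adjusted p = 0.0602). Untreated SapKO cells differed by 0.20 ± 0.13 and were not called. The probe sets of Rapgef3 did not move alike: another one differed by −0.58 after anti-CD3 and −0.59 untreated in ElkKO, and the remaining 3 by −0.24 to 0.01 and −0.30 to −0.15. In ElkSapKO after anti-CD3 these 3 were higher than WT, by 0.22 to 0.45. The ElkKO mice all had high dap, while WT mice 1 and 2 had low dap, and the Actb 3′ minus 5′ signal was higher in ElkKO than in WT. The part of dap and RNA quality in the Rapgef3 difference was not tested.

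Orc1 was higher in ElkSapKO. After anti-CD3 it had 8.24, 8.09 and 7.66 in ElkSapKO cells and 6.68, 6.82 and 7.002 in WT cells, without overlap, a difference of 1.16 ± 0.22 (SE, limma adjusted p = 0.0046). Between these groups 34.5% of genes with a mean signal of at least 6 did not overlap either. This anti-CD3 call of Orc1 held in each of the 24 fits that left out 1 array, with an adjusted p of up to 0.0429. It was the only 1 of the 35 calls to do so. With the mean of all probe sets it was lost (limma adjusted p = 0.158). Untreated, Orc1 had 8.71, 7.92 and 8.49 in ElkSapKO cells and 7.24, 7.77 and 7.77 in WT cells (0.78 ± 0.22, limma adjusted p = 0.0489). The untreated call was lost in 18 of 24 fits that left out 1 array, with an adjusted p of up to 0.241. It was also lost with the mean of all probe sets (limma adjusted p = 0.291). ElkKO cells lay between, at 0.73 after anti-CD3 (adjusted p = 0.166) and 0.51 untreated (adjusted p = 0.593). The other Orc1 probe set differed by −0.08 after anti-CD3 and −0.04 untreated in ElkSapKO, so it did not show the rise.

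**Figure D5:**
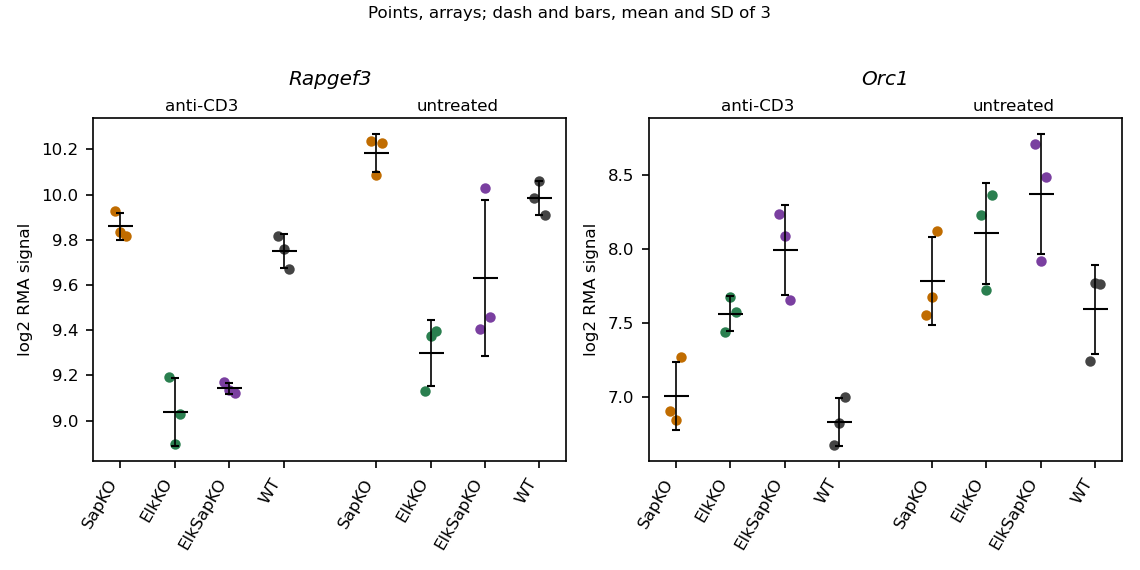
Log2 RMA signal (y axis) of the representative probe sets of Rapgef3 and Orc1 in the 8 groups (x axis), anti-CD3 at the left of each panel; points are arrays, dashes means and bars SDs of 3 arrays. Rapgef3 is low in ElkKO in both states, and Orc1 is highest in ElkSapKO.

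Further genes called in ElkSapKO were spread over the roles. After anti-CD3, lower signals were found for Dhcr7, the last enzyme of cholesterol synthesis (−1.19 ± 0.26, limma adjusted p = 0.0104), Zbtb45, a zinc finger factor (−1.15 ± 0.28, adjusted p = 0.0193), Armc7 (−0.85 ± 0.18, adjusted p = 0.0108) and Dus3l, a transfer RNA enzyme (−0.82 ± 0.21, adjusted p = 0.023). Higher signals were found for the noncoding RNA Kantr (1.03 ± 0.25, adjusted p = 0.0181) and for Foxo3 (0.55 ± 0.14, adjusted p = 0.0207). With the mean of all probe sets Kantr and Foxo3 were not called (limma adjusted p = 0.408 and 0.900), while Dus3l was. Dhcr7, Zbtb45 and Armc7 have no further probe set, so that setting could not check their calls. With only the high-dap arrays, which leave 1 WT mouse, Kantr differed by 0.92 and Foxo3 by 0.29. Foxo3 had 9.28, 9.43 and 9.12 in ElkSapKO cells and 8.53, 8.68 and 8.99 in WT cells. Untreated, lower signals were found for Rnf114, a ubiquitin ligase (−1.04 ± 0.23, adjusted p = 0.0182), Pik3ip1 (−0.91 ± 0.19, adjusted p = 0.0119), Eid1, an inhibitor of EP300 (−0.75 ± 0.18, adjusted p = 0.0234), Bid (−0.73 ± 0.18, adjusted p = 0.0299), Atg14 (−0.67 ± 0.15, adjusted p = 0.0184) and Ccdc117 (−1.05 ± 0.27, adjusted p = 0.0376). Agfg2 was higher (1.00 ± 0.22, adjusted p = 0.0182), as was Smyd1, a muscle methyltransferase (0.58 ± 0.14, adjusted p = 0.0228). Of these untreated genes, only Pik3ip1 and Atg14 were called with the mean of all probe sets. Atg14 has no further probe set, so its call could not change by that mean, while Pik3ip1 has another. Pik3ip1 had 9.89, 9.27 and 10.22 in untreated ElkSapKO cells and 10.69, 10.86 and 10.58 in untreated WT cells; the lowest of these is the array of ElkSapKO mouse 2. After anti-CD3 it differed by −0.56 ± 0.19 and was not called (adjusted p = 0.0774). Without the untreated array of WT mouse 1 no gene of the 140 was called in untreated ElkSapKO, and without the anti-CD3 array of ElkSapKO mouse 1 only Orc1 was called after anti-CD3. With only the high-dap arrays, which leave 1 WT mouse, 0 were called in either state. RNA quality and dap both moved with this genotype, and their part in these differences was not tested.

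The response itself was compared between genotypes. Limma called 0 of the 140, and 0 of all 18193 genes, in each of 5 comparisons of responses. For ElkSapKO against WT 4 of the 140 (2.86%) had an unadjusted p under 0.05, beside 5.398% of all genes and 3.32% of the 8361. With the mouse as a block 13 did (9.29%, beside 8.498% of all genes). The smallest adjusted p among the 140 was that of Zfp874b, a zinc finger gene, whose response was higher in ElkSapKO by 0.81 ± 0.28 (limma adjusted p = 0.703). For SapKO against WT the count was 0, beside 0.786% of all genes, or 2 with the block (1.43%, beside 1.39%). For ElkKO against WT it was 0, beside 0.907%, or 1 with the block (0.714%, beside 1.68%). For the mice without Sap against those with it the count was 1 (0.714%, beside 2.04%), or 3 with the block (2.14%, beside 3.37%). For those without Elk against those with it the count was 1 (0.714%, beside 1.65%), or 4 with the block (2.86%, beside 3.03%). Without the block, the shares of the 8361 genes were 0.0957% for SapKO and 0.191% for ElkKO against WT. They were 0.682% for the Sap comparison and 0.634% for the Elk comparison. The shares of the 140 lay near or below the background of all genes, and without the block near that of the 8361. Standard errors of these differences were 0.14 to 0.28 for the genes with the smallest p, so for these genes a difference as large as the median fall of the 140 (−0.32) was not detectable with 3 mice a genotype. The response of the median gene of the 140 was higher in ElkSapKO than in WT by 0.12, beside 0.08 for the 8361 genes.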

How the data were processed

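The values are log2 RMA signals of Affymetrix Mouse430_2 arrays that the authors deposited; RMA and affy are named per the submitters' processing notes, with no version or build stated. The 24 arrays hold 45101 probe sets, 64 of them controls. Array number, not read depth, limits precision here. No value was renormalized or floored. Each gene took its brightest probe set that lists 1 symbol. The members and gene lists were chosen with earlier results of these data known. limma 3.58.1 (R 4.3.3) fitted 8 group means to 18193 genes with Benjamini-Hochberg adjustment; a call is an adjusted p under 0.05. Named genes are the 25 members with the largest mean fall, up to 4 of each list, up to 8 called per contrast, 3 on each side of the threshold, up to 5 of the brightest and 5 of the most variable, and the checks Elk1, Elk4, Actb and Egr1; other genes shown for a role, a motif or a probe set were picked after their values were seen. Titles and descriptions give the same mouse numbers in both states; deviations of same-numbered arrays correlated at -0.03 to 0.85, above 0.1 in 11 of 12 mice, and the mouse as a block was an alternative. Motifs and spans came from RefSeq tables (GRCm38.p6). On simulated data for untreated ElkKO against WT, 28.4%, 73.1% and 100% of genes changed by 0.5, 1 and 2 log2 were recovered. Python 3.11.15 drew the plots.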

Additional observations from a re-analysis of the deposited data

How the results depend on the processing

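Calls between genotypes depended on the arrays and settings used. With the mouse as a block, lowered genes called in the average response numbered 89 in place of 54, Rapgef3 in untreated ElkKO was lost (0 called), and no other count of calls moved past 1.5 times. Array weights gave 112 in the average response, 20 in untreated ElkKO, 84 in untreated ElkSapKO, 14 in anti-CD3 ElkKO and 50 in anti-CD3 ElkSapKO. Counts in this paragraph lack the share of all genes called under the same setting. They thus do not show an effect particular to the lowered genes. In the main fit, 7.86% of lowered genes were called in untreated ElkSapKO, beside 6.28% of genes with mean at least 6. After anti-CD3 these shares were 15.7% and 12.5%. With only the arrays compared, the counts were 0, 0, 0 and 8 for untreated ElkKO, untreated ElkSapKO, anti-CD3 ElkKO and anti-CD3 ElkSapKO. The mean of all probe sets gave 0 in ElkKO in both states and 14 in anti-CD3 ElkSapKO. Genes with a single probe set keep their values under that mean, so it does not check them. A fit of only the genes with mean at least 6 gave 20 in untreated ElkSapKO. High-dap arrays alone gave 0 in the average response and in each ElkKO and ElkSapKO comparison. Leaving out 1 array gave 37 to 89 in the average response, 0 to 2 in ElkKO in each state, 0 to 51 in untreated ElkSapKO and 1 to 35 in anti-CD3 ElkSapKO, and 0 in both SapKO comparisons and all 5 response comparisons. The number of members was 231 at a mean of at most -0.2, 77 at -0.3, 50 when all 12 mice had to fall, and 122 to 275 with 1 mouse left out. Among single genes under an alternative, 791 values kept their side of the threshold, 329 lost it and 0 reversed; the cause was not tested. A comparison of protein features was not run.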
